A study of Mus musculus with 22 samples.

Results

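Neuregulins are growth factors and ErbB4 is one of their receptors, and the 4 mouse genes described here encode the receptor (Erbb4) and 3 of its ligands (Nrg1, Nrg2 and Nrg3). They were taken by name from 21755 protein-coding genes, at their GENCODE vM21 spans in the mm10 genome. They were selected on the 5-methylcytosine (5mC) and 5-hydroxymethylcytosine (5hmC) levels of these same libraries, so their own levels are given below as a description and carry no test. They overlap 37 of 26327 bins of 100 kb in which 5mC was measured, and 7 of 2641 bins of 1 Mb in which 5hmC was measured.

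The DNA came from untreated C57BL/6 mice aged 8 weeks. The methods give the mice as female and the replicates of a tissue as coming from independent mice, and whether the tissues of 1 replicate share a mouse is not given in the sources used here. Cortex (whole cerebral cortex without hippocampus), olfactory bulb (OB) and cerebellum were compared. Oxidative bisulfite sequencing (oxBS-seq), which reads 5mC alone, gave 3 libraries of cortex, 2 of OB and 2 of cerebellum. Tet-assisted bisulfite sequencing (TAB-seq), which reads 5hmC alone, gave 3 libraries of each tissue. RNA-seq libraries of the same tissues were not analysed here. All values are levels from 0 to 1, without the read counts behind them, so the depth of each bin is unknown and no counting interval is given. The tissues were taken whole, so a smaller share of cells of a given type and a lower level within those cells cannot be told apart. Of 12 marker loci set against the tissue labels, 10 had their lowest 5mC in the labelled tissue, and Slc17a7 and Gabra6 did not. The cortex loci are a weak check, since cortex was low in much of the genome. In 61% of all bins every OB library, and in 76.3% every cerebellum library, lay above every cortex library. Some margins were small, as at Sp8, with 0.414 in cortex, 0.399 in OB and 0.409 in cerebellum.

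Neuregulins carry an EGF-like domain that binds ErbB4 and, in some neuregulins, ErbB3. These receptor tyrosine kinases then pair with each other or with ErbB2 and signal through PI3-kinase and MAP kinase. Many neuregulins are made as membrane proteins and are released or exposed by proteases such as Bace1 and Adam17. In the adult forebrain ErbB4 is best known from GABAergic interneurons, and it is also carried by the neuroblasts that migrate to the olfactory bulb. In vertebrate neurons 5hmC is abundant in the bodies of active genes, and 5mC in a gene body or promoter tends to be lower where regulatory sequence is in use.

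The 250 bases before the start of Erbb4 and Nrg3 are shown, from RefSeq's GRCm38.p6 entries and read 5′ to 3′ on the minus strand. The start-site bins of both genes, described below, are among the bins of lowest 5mC in their genes. That does not set them apart, since the start-site bin of Nrg2 was the lowest of its gene in OB and cerebellum. The level of a 100 kb bin is not that of these 250 bases. Capitals mark CG dinucleotides, which read the same on both strands. The paper also saw methylation outside CG, and found most of both marks in CG, on which it then focused. The 2 windows are chr1:69108060-69108309 for Erbb4 and chr14:39473089-39473338 for Nrg3. Entries matched 2 of the 4 genes, and Nrg1 and Nrg2 had none.
Erbb4: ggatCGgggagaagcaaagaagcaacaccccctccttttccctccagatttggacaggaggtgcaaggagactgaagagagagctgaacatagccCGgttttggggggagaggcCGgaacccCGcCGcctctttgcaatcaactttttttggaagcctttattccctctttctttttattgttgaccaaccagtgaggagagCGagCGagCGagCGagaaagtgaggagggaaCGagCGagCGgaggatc
Nrg3: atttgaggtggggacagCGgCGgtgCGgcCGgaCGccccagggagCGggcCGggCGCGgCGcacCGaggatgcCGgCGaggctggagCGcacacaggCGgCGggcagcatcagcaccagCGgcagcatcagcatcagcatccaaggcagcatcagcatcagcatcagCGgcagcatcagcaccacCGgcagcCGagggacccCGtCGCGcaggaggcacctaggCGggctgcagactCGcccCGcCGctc
The Erbb4 window holds 12 CG and the Nrg3 window 27, against a median of 6 over 32851 promoter windows of the same length. At least 1 CG occurs in 92.1% of those windows, as many as in Erbb4 in 33.5% and as many as in Nrg3 in 8.56%. Over the whole genes the median 100 kb bin held 493.5 CpG sites in Erbb4, 661 in Nrg1, 1216.5 in Nrg2 and 417.5 in Nrg3, and 751 over the genome.

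All 4 genes lie on the minus strand. Erbb4 (ENSMUSG00000062209.15) spans chr1:68032186-69108059, which is 1076 kb with 5 annotated transcripts. Nrg1 (ENSMUSG00000062991.7) spans chr8:31814551-32884029, or 1069 kb with 18 transcripts. Nrg2 (ENSMUSG00000060275.13) is the short gene of the set at chr18:36017652-36197380, 180 kb with 5 transcripts. Nrg3 (ENSMUSG00000041014.17) spans chr14:38368952-39473088, 1104 kb with 4 transcripts. Exons make up 1.15% of Erbb4, 0.968% of Nrg1, 1.75% of Nrg2 and 0.617% of Nrg3, so a 100 kb bin within these genes holds mostly intron.

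The whole genome shifted between the tissues, and the values of the 4 genes have to be read against that shift. The median bin differed between OB and cortex by 0.0307 for 5mC and -0.0198 for 5hmC, and between cerebellum and cortex by 0.0585 and -0.0708. On the log2 odds scale, where a level is divided by 1 minus itself, the cerebellum to cortex shifts were 0.43 and -0.97 and the OB to cortex shifts 0.22 and -0.24. From OB to cerebellum the shifts were 0.19 for 5mC and -0.72 for 5hmC. Libraries of one tissue agreed closely, with Pearson's r of 0.947 to 0.982 over bins for 5mC and 0.994 to 0.998 for 5hmC, against 0.801 to 0.918 and 0.783 to 0.944 between tissues. Cortex library 3 had the lowest median 5mC of the 7 oxBS-seq libraries, 0.679, where the other 2 cortex libraries had 0.705 and 0.706.

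Erbb4, the receptor, had the most 5hmC in OB, and its 5mC there did not exceed that of cortex as it did in most of the genome. Averaged over its 12 bins, 5mC was 0.715, 0.721 and 0.692 in the 3 cortex libraries, 0.697 and 0.694 in OB, and 0.804 and 0.783 in cerebellum. The OB libraries lay within the range of cortex, and both cerebellum libraries lay above every other library. In means, Erbb4 stood at 0.709 ± 0.0157 (SD, n = 3) in cortex, 0.695 ± 0.00204 (SD, n = 2) in OB and 0.793 ± 0.0144 (SD, n = 2) in cerebellum. The difference of OB from cortex was thus -0.0141, less than the spread between libraries of 0.0159 (the root of the summed squared SDs), whereas the median bin of the genome was higher there. Without cortex library 3 the difference was -0.0230, and without cortex library 2 it was -0.00804. Measured from the median bin of its own library, Erbb4 lay at 0.0129 ± 0.00260 in cortex, -0.0332 ± 0.000498 in OB and 0.0404 ± 0.00343 in cerebellum, and on this scale no library of one tissue overlapped another tissue.

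The gap in OB in Erbb4 was not even along the gene. In the 3′ part the lines of cortex and OB ran together: at chr1:68200001-68300000 5mC was 0.721 ± 0.0137 in cortex and 0.735 ± 0.00273 in OB. Over the next bins toward the 5′ end, chr1:68400001-69100000, the mean of OB was lower in each, with the largest difference, -0.0420, at chr1:68600001-68700000. There the cortex libraries read 0.732, 0.727 and 0.706, the OB libraries 0.692 and 0.668, and the cerebellum libraries 0.843 and 0.829. No OB library reached the cortex range in this bin, and the same bin held the largest excess of cerebellum over OB in the gene, 0.156. Over the whole gene 9 of 12 bins were lower in OB, 4 of them with no overlap between libraries and lower, an arrangement found in 4.04% of all bins. The bin of the start site, chr1:69100001-69200000, of which the gene covers 8.06%, went the other way, with 0.628 ± 0.0112 in cortex, 0.650 ± 0.0137 in OB and 0.689 ± 0.0105 in cerebellum. It was the lowest bin of the gene in cortex and in cerebellum and the next to lowest in OB.

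**Figure D1:**
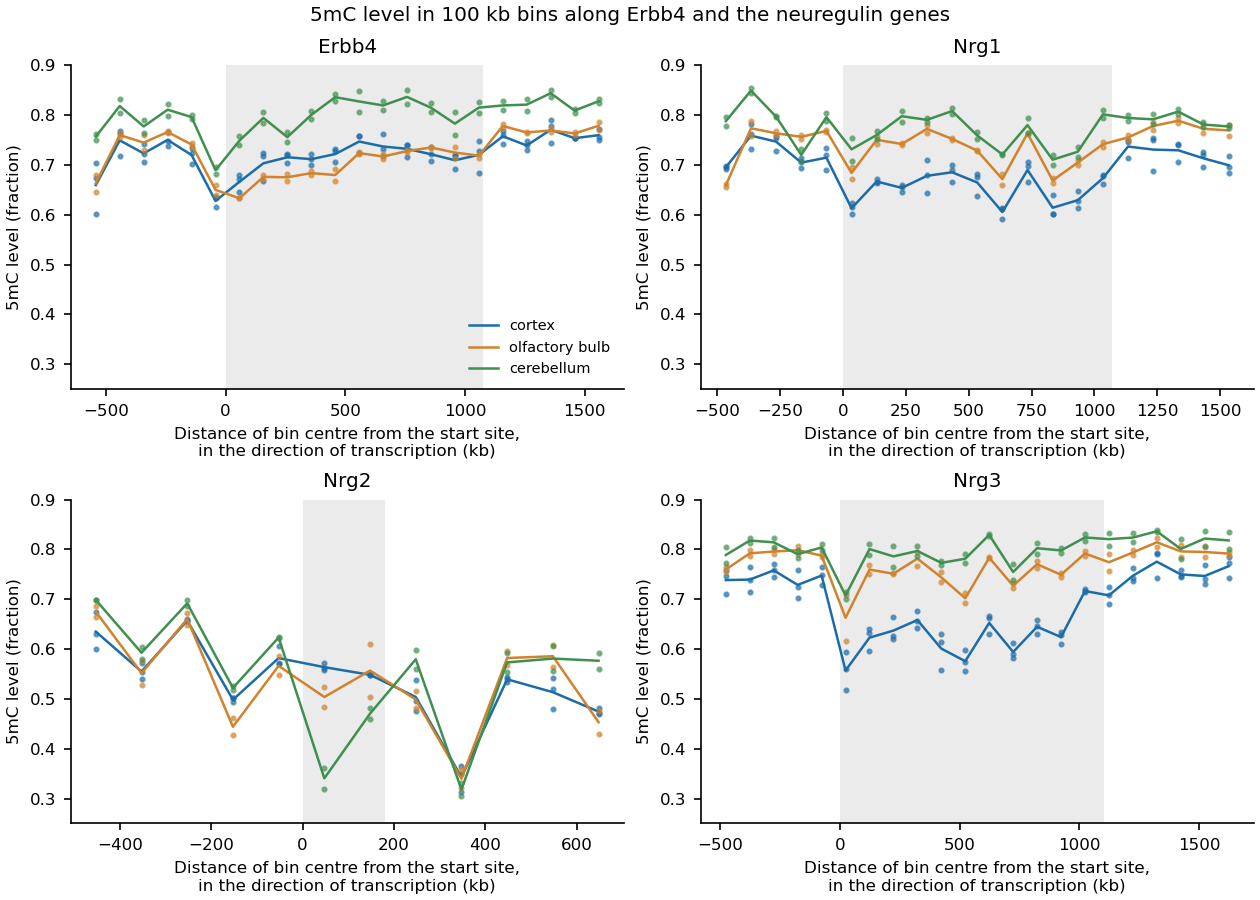
Level of 5mC (fraction, vertical axes) in each 100 kb bin of Erbb4, Nrg1, Nrg2 and Nrg3 and their 500 kb flanks, against the distance of the bin's centre from the start site in kb in the direction of transcription. Points are libraries (3 cortex, 2 OB, 2 cerebellum), lines join tissue means and gray marks the gene; cortex runs below the other tissues within Nrg1 and Nrg3, OB dips below cortex in the 5′ part of Erbb4, and cerebellum drops to 0.341 at the 5′ end of Nrg2.

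The flanks of Erbb4 lacked the gap in OB. Over the 10 flanking bins 5mC was 0.738 ± 0.0164 in cortex (n = 3), 0.753 ± 0.00138 in OB (n = 2) and 0.808 ± 0.00906 in cerebellum (n = 2). The gene minus its flanks was -0.0300, -0.0286 and -0.0279 in the cortex libraries, -0.0571 and -0.0580 in OB and -0.0109 and -0.0184 in cerebellum. The gene-to-flank step was therefore deepest in OB, and its libraries did not overlap those of the other tissues. With flanks of 1 Mb the means were -0.0187 in cortex, -0.0529 in OB and -0.00337 in cerebellum, and with bins wholly inside the gene that of cerebellum was -0.00641.

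The means of 5hmC in Erbb4 ranked the tissues in the reverse order of 5mC. The 1 Mb bin that holds most of the gene, chr1:68000001-69000000 (96.8% gene, no other protein-coding gene), read 0.164, 0.178 and 0.150 in cortex, 0.236, 0.236 and 0.229 in OB, and 0.135, 0.146 and 0.148 in cerebellum. All 3 OB libraries were above all cortex libraries, and all cerebellum libraries were below them. The mean difference between OB and cortex was 0.0700 in this bin, while that of the median bin of the genome was -0.0198. Among all 1 Mb bins, 3.33% had every OB library above every cortex library and 97.5% every cerebellum library below every cortex library. The other bin, chr1:69000001-70000000, is 10.8% gene and also holds Ikzf2 and Spag16, and its means were 0.163 ± 0.00925 in cortex, 0.161 ± 0.00662 in OB and 0.0786 ± 0.00241 in cerebellum (n = 3 each). Averaged over both bins 5hmC of Erbb4 was 0.164 ± 0.0115, 0.198 ± 0.00489 and 0.111 ± 0.00398, in the same order of tissues. Relative to the median bin of each library these became -0.0110 ± 0.00219, 0.0458 ± 0.00300 and 0.0178 ± 0.00387, so OB stayed highest and cerebellum passed above cortex. Weighted by overlap with the gene, the differences from cortex were 0.0627 in OB and -0.0273 in cerebellum, where the plain means gave 0.0340 and -0.0528. The bin downstream, chr1:67000001-68000000, with Cps1 and Lancl1, had 0.149 ± 0.00861, 0.160 ± 0.00666 and 0.0576 ± 0.000956. Erbb4 exceeded this flank by 0.0141 in cortex, 0.0372 in OB and 0.0532 in cerebellum.

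Nrg1, the ligand with the most annotated transcripts, had its lowest 5mC and its highest 5hmC in cortex. Over its 11 bins 5mC was 0.657, 0.662 and 0.637 in the cortex libraries, 0.725 and 0.726 in OB, and 0.771 and 0.754 in cerebellum. The 3 tissues did not overlap. Their means were 0.652 ± 0.0134 (n = 3), 0.725 ± 0.00105 (n = 2) and 0.762 ± 0.0118 (n = 2), so that OB was 0.0732 and cerebellum 0.110 above cortex, each more than the shift of the genome. Against the median bin of each library Nrg1 stood at -0.0443 ± 0.00266 in cortex, -0.00318 ± 0.00259 in OB and 0.00945 ± 0.000790 in cerebellum, which places OB and cerebellum near the genome's median and cortex below it.

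The lower 5mC of cortex was present in each of the 11 bins of Nrg1, with every cortex library below every OB and cerebellum library. Among all bins of the genome 61% had every OB library above every cortex library and 76.3% every cerebellum library. The gap between OB and cortex ran from 0.0548 at chr8:32000001-32100000 to 0.0942 at chr8:32500001-32600000. The gap between cerebellum and cortex ran from 0.0900 at chr8:32100001-32200000 to 0.144 at chr8:32600001-32700000. The difference of cerebellum from OB was narrower, from 0.00951 at chr8:32700001-32800000 to 0.0599 at chr8:31800001-31900000. Of the bins with annotated transcript starts, the start-site bin chr8:32800001-32900000 and the bins chr8:31900001-32000000 and chr8:32000001-32100000, with 7 and 5 starts, read 0.613 ± 0.0112, 0.629 ± 0.0166 and 0.614 ± 0.0227 in cortex, and chr8:31800001-31900000, with 1 start, read 0.673 ± 0.00970. The lowest cortex bin, chr8:32200001-32300000 at 0.606 ± 0.0114, has no annotated start and no exon. Across the 11 bins the level was lower where there were more CpG sites, with Pearson's r of -0.649 in cortex, -0.708 in OB and -0.715 in cerebellum, values that share the same DNA sequence and the same libraries. The relation was weaker in the other long genes. In the same order of tissues r was -0.646, -0.321 and -0.589 in Erbb4 and -0.0866, -0.399 and -0.471 in Nrg3.

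The flanks of Nrg1 also had less 5mC in cortex than in the other tissues. Flank means were 0.723 ± 0.0175, 0.758 ± 0.00407 and 0.790 ± 0.00621 in cortex, OB and cerebellum. Nrg1 minus its flanks was -0.0708 ± 0.00554 in cortex (n = 3), -0.0331 ± 0.00302 in OB (n = 2) and -0.0277 ± 0.00555 in cerebellum (n = 2). Cortex stood apart on this measure, and OB and cerebellum differed by less than their spread of 0.00632. The step depended on the width of the flanks, and with flanks of 1 Mb it was -0.0433 in cortex, -0.00208 in OB and 0.00540 in cerebellum, where its direction turned.

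In 5hmC the order of the tissues was cortex, OB, cerebellum in both bins of Nrg1. The bin with 88.4% gene and no other protein-coding gene, chr8:32000001-33000000, read 0.199, 0.213 and 0.188 in cortex, 0.160, 0.166 and 0.158 in OB, and 0.0735, 0.0717 and 0.0765 in cerebellum. Cerebellum minus cortex was thus -0.126, and both OB and cerebellum lay below cortex with no overlap, as they did in 68.2% and 97.5% of all 1 Mb bins. The bin chr8:31000001-32000000, of which the gene takes 18.5% beside 5 other protein-coding genes, had 0.174 ± 0.0108, 0.144 ± 0.00515 and 0.0768 ± 0.00203. Over both bins the means were 0.187 ± 0.0114, 0.153 ± 0.00454 and 0.0753 ± 0.00195 (n = 3 each), the last being the lowest 5hmC of the 4 genes in any tissue. Relative to the median bin of each library Nrg1 was at 0.0126 ± 0.00113, 0.000982 ± 0.000671 and -0.0177 ± 0.000217, so its order held after the genome's shift was taken off. The upstream megabase, chr8:33000001-34000000 with 10 other protein-coding genes, had 0.185 ± 0.0119 in cortex, 0.164 ± 0.00585 in OB and 0.0979 ± 0.000428 in cerebellum.

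Nrg2 had its lowest 5mC in cerebellum, where the other 3 genes had their highest. The gene touches 2 bins, neither of them wholly inside it. Their mean was 0.553, 0.561 and 0.554 in the cortex libraries, 0.567 and 0.494 in OB, and 0.410 and 0.401 in cerebellum. Both cerebellum libraries were below all others, while the OB libraries lay on either side of cortex. The means were 0.556 ± 0.00441 (n = 3), 0.530 ± 0.0516 (n = 2) and 0.405 ± 0.00680 (n = 2), so cerebellum differed by -0.150 from cortex and by -0.125 from OB. The difference of OB from cortex, -0.0257, was within the spread of 0.0518 and turned with the library, to 0.0107 without OB library 2 and -0.0622 without library 1. From OB to cerebellum the difference was -0.161 without OB library 2 and -0.0883 without library 1.

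The low cerebellar 5mC of Nrg2 was lower still toward the start site. The bin chr18:36100001-36200000, which the gene fills to 97.4% and which holds its start, read 0.557, 0.572 and 0.561 in cortex, 0.523 and 0.484 in OB, and 0.361 and 0.320 in cerebellum. Cerebellum differed by -0.223 from cortex and by -0.163 from OB, with no overlap in either case. The 3′ bin, chr18:36000001-36100000, read 0.548, 0.550 and 0.547 in cortex, 0.610 and 0.503 in OB, and 0.459 and 0.481 in cerebellum. Here cerebellum minus cortex was -0.0779, and the 2 OB libraries disagreed by more than the tissues did. In both bins every cerebellum library was below every cortex and OB library, which held in 5.62% and 16.2% of all bins. The 10 flanking bins stood at 0.530 ± 0.0154 in cortex, 0.536 ± 0.00110 in OB and 0.576 ± 0.0103 in cerebellum. As in most of the genome, 9 of them were higher in cerebellum than in cortex and 1 was lower. Between OB and cortex they did not follow the genome, with 4 bins higher in OB and 6 lower. Nrg2 minus its flanks was 0.0268, 0.0137 and 0.0371 in cortex and -0.173 and -0.168 in cerebellum, while the OB libraries gave 0.0303 and -0.0411. With flanks of 1 Mb the means were -0.0163 in cortex, -0.0612 in OB and -0.224 in cerebellum, so the step in cortex turned and that of cerebellum did not.

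The single 1 Mb bin of Nrg2, chr18:36000001-37000000, is only 18.0% Nrg2 and also holds Hbegf, another ErbB ligand, Psd2, Pura and protocadherin alpha genes, so its 5hmC is that of a gene-rich megabase. It read 0.151, 0.163 and 0.148 in cortex, 0.143, 0.152 and 0.141 in OB, and 0.135, 0.136 and 0.141 in cerebellum. Cortex and OB overlapped, and cerebellum lay just below both. The OB minus cortex difference of -0.00904 was -0.00440 without cortex library 2, and the cerebellum minus OB difference of -0.00760 was -0.00433 without OB library 2. The difference of cerebellum from cortex was -0.0166, against -0.0708 for the median bin. Against the median bin of each library, the Nrg2 bin lay at -0.0206 ± 0.00234 in cortex, at -0.00676 ± 0.00152 in OB and at 0.0444 ± 0.000957 in cerebellum, so that cerebellum was highest on this scale. The megabase downstream, chr18:35000001-36000000, had more 5hmC in each tissue, with 0.219 ± 0.0111, 0.199 ± 0.00466 and 0.161 ± 0.00594.

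Nrg3, whose product binds ErbB4 and is made largely in the nervous system, had less 5mC in cortex than in the other tissues, as Nrg1 did, with larger differences. Over its 12 bins 5mC was 0.640, 0.636 and 0.622 in cortex, 0.748 and 0.751 in OB, and 0.799 and 0.780 in cerebellum. None of the tissues overlapped. From means of 0.632 ± 0.00907 (n = 3), 0.750 ± 0.00215 (n = 2) and 0.789 ± 0.0137 (n = 2), OB was 0.117 and cerebellum 0.157 above cortex. After subtraction of the library medians the values were -0.0640 ± 0.00683, 0.0210 ± 0.00369 and 0.0364 ± 0.00278.

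The low 5mC of cortex ran along the whole of Nrg3. All 12 bins had every cortex library below every OB and every cerebellum library, an arrangement found in 61% of all bins for OB and 76.3% for cerebellum. The smallest gap between OB and cortex, 0.0664, was in the 3′ border bin chr14:38300001-38400000, of which the gene covers 31.0%, and the largest, 0.143, in chr14:39000001-39100000. In that bin cortex read 0.614, 0.631 and 0.558, OB 0.734 and 0.754, and cerebellum 0.777 and 0.768. For cerebellum the gap ran from 0.107 at chr14:38400001-38500000 to 0.206 at chr14:38900001-39000000. The start-site bin chr14:39400001-39500000 was the lowest of the gene in each tissue, at 0.557 ± 0.0385 in cortex, 0.663 ± 0.0653 in OB and 0.708 ± 0.00924 in cerebellum, and its OB libraries read 0.709 and 0.617. Cerebellum exceeded OB by 0.0152 at chr14:39100001-39200000 and by 0.0794 at chr14:38900001-39000000. One bin upstream of the gene, at chr14:39500001-39600000, cortex was back at 0.765, 0.748 and 0.729.

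The flanks of Nrg3 stood at 0.750 ± 0.0177 in cortex, 0.792 ± 0.00266 in OB and 0.811 ± 0.0140 in cerebellum. Cortex was thus also the lowest tissue outside the gene, by less than inside it. The gene minus its flanks was -0.125, -0.119 and -0.108 in the cortex libraries, -0.0423 and -0.0430 in OB and -0.0223 and -0.0219 in cerebellum. The step into the gene had a mean of -0.117 ± 0.00863 in cortex, deeper than in any library of the other tissues.

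Both 1 Mb bins of Nrg3 hold no other protein-coding gene. In chr14:38000001-39000000, 63.1% gene, 5hmC was 0.174, 0.193 and 0.168 in cortex, 0.118, 0.125 and 0.117 in OB, and 0.0964, 0.0891 and 0.0957 in cerebellum. In chr14:39000001-40000000, 47.3% gene, the means were 0.167 ± 0.0120, 0.131 ± 0.00506 and 0.0884 ± 0.00570. Cortex was highest in both bins with no overlap, and 68.2% of all 1 Mb bins had every OB library, and 97.5% every cerebellum library, below every cortex library. Over both, 5hmC was 0.173 ± 0.0125, 0.126 ± 0.00441 and 0.0911 ± 0.00466 (n = 3 each). Relative to the library medians the cortex and cerebellum values were both close to 0, at -0.00205 ± 0.00245 and -0.00201 ± 0.00483, and OB was lower, at -0.0260 ± 0.00129. The 5hmC difference of cerebellum from cortex, -0.0815, was thus close to the genome's shift, and that of OB from cortex, -0.0468, was larger than it, so that on this scale OB lay below cerebellum. The megabase downstream, chr14:37000001-38000000, had less 5hmC than Nrg3, with 0.138 ± 0.00890 in cortex, 0.0968 ± 0.00369 in OB and 0.0692 ± 0.00161 in cerebellum.

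**Figure D2:**
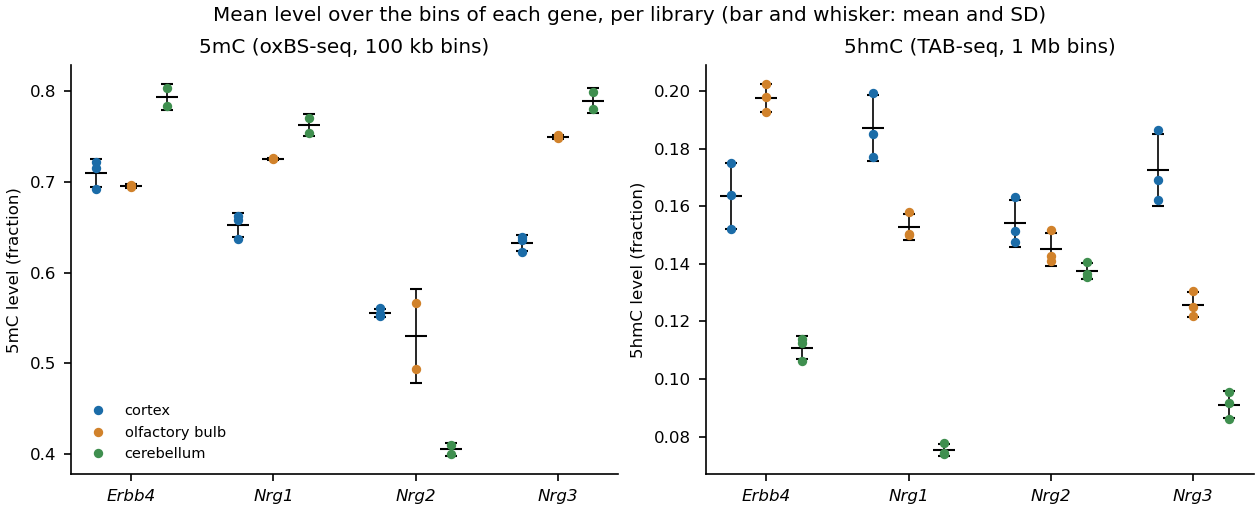
Mean level of 5mC over 100 kb bins (left) and of 5hmC over 1 Mb bins (right) for each gene, as fractions. Each point is a library, the short bar is the tissue mean and the whiskers are 1 SD; cerebellum is highest in 5mC for Erbb4, Nrg1 and Nrg3 and lowest for Nrg2, and OB is highest in 5hmC for Erbb4 alone.

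Within a tissue the genes ranked differently. In cortex 5mC was highest in Erbb4 (0.709), then Nrg1 (0.652), Nrg3 (0.632) and Nrg2 (0.556), and each step was larger than the spread of the pair. In OB the order was Nrg3 (0.750), Nrg1 (0.725), Erbb4 (0.695) and Nrg2 (0.530), again with each step beyond the spread. In cerebellum Erbb4 (0.793) and Nrg3 (0.789) differed by 0.00399, less than their spread of 0.0199, and Nrg1 (0.762) and Nrg2 (0.405) followed beyond it. For 5hmC the order in cortex was Nrg1 (0.187), Nrg3 (0.173), Erbb4 (0.164) and Nrg2 (0.154), and no neighbours differed beyond the spread between libraries, although within each of the 3 libraries the order was the same. In OB it was Erbb4 (0.198), Nrg1 (0.153), Nrg2 (0.145) and Nrg3 (0.126), and in cerebellum Nrg2 (0.137), Erbb4 (0.111), Nrg3 (0.0911) and Nrg1 (0.0753), with each step beyond the spread.

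**Figure D3:**
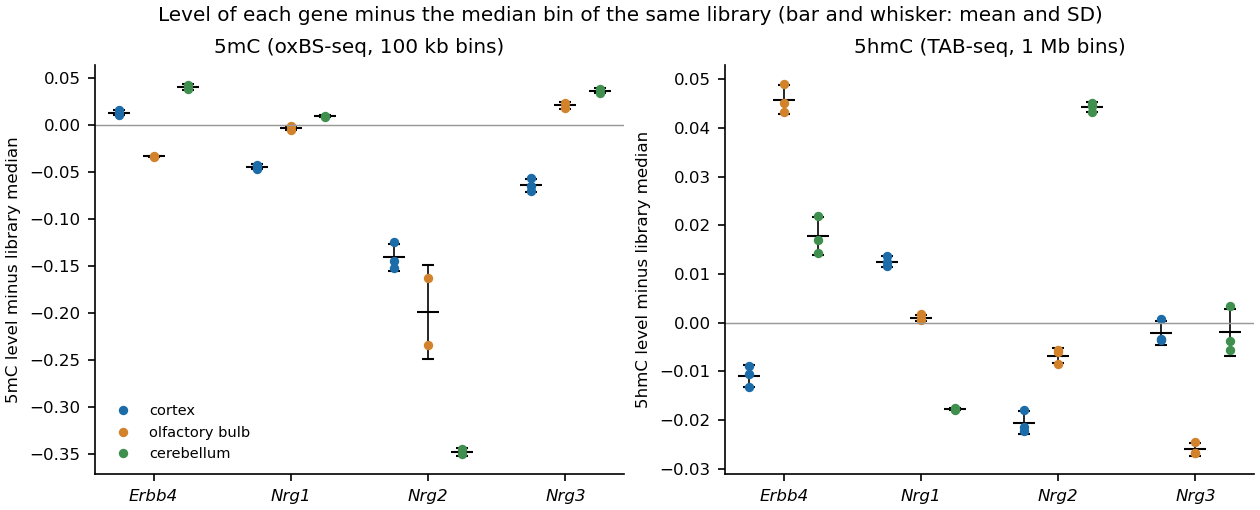
Level of each gene minus the median bin of the same library, for 5mC (left) and 5hmC (right), in units of the fraction. Points are libraries, the short bar is the tissue mean and the whiskers are 1 SD; the line at 0 is the genome's median bin, which Nrg2 reaches from below only for 5hmC in cerebellum (0.0444) and which Erbb4 undercuts for 5mC only in OB (-0.0332).

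The 2 marks were also set together over the same megabases, by averaging the 100 kb 5mC levels within the 1 Mb bins and adding the 5hmC level. The 2 marks come from different libraries, so the sums have no library values of their own, and the spread of a sum (the root of the summed squared SDs) was between 0.00471 and 0.0216. For Erbb4 the sum was 0.877 in cortex, 0.913 in OB and 0.903 in cerebellum, and 5hmC made up 18.6%, 21.6% and 12.3% of it. Nrg1 summed to 0.858, 0.885 and 0.833 with 5hmC shares of 21.8%, 17.3% and 9.04%. Nrg3 summed to 0.851, 0.892 and 0.888 with shares of 20.3%, 14.1% and 10.2%. For the Nrg2 megabase the sums were 0.750, 0.737 and 0.727 and the shares 20.5%, 19.7% and 18.9%. The 5hmC share thus ranged over the tissues by the most in Nrg1 and by the least in the Nrg2 bin, and only in Erbb4 was it highest in OB. These shares include the shift of the genome, whose median 5hmC was 0.175 in cortex, 0.152 in OB and 0.0931 in cerebellum.

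Against all 1476 protein-coding genes of at least 150 kb, the 4 genes lay in different parts of the distribution. For 5mC, the OB minus cortex difference of Nrg3 (0.117) was exceeded in 26 of the others and that of Nrg1 (0.0732) in 146, while 136 genes had a lower difference than Erbb4 (-0.0141). The median of these long genes was 0.0308. For cerebellum minus cortex, 36 genes exceeded Nrg3 (0.157) and 237 exceeded Nrg1 (0.110), Erbb4 (0.0839) was near the median of 0.0690, and 2 genes had a lower difference than Nrg2 (-0.150). In 5hmC, 5 genes exceeded the OB minus cortex difference of Erbb4 (0.0340, against a median of -0.0186), and 29 lay below Nrg3 (-0.0468). For cerebellum minus cortex 83 genes lay below Nrg1 (-0.112), and 51 exceeded Nrg2 (-0.0166). Neighbouring genes share bins, above all the 1 Mb bins, so these are places in a list and not independent draws.

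**Figure D4:**
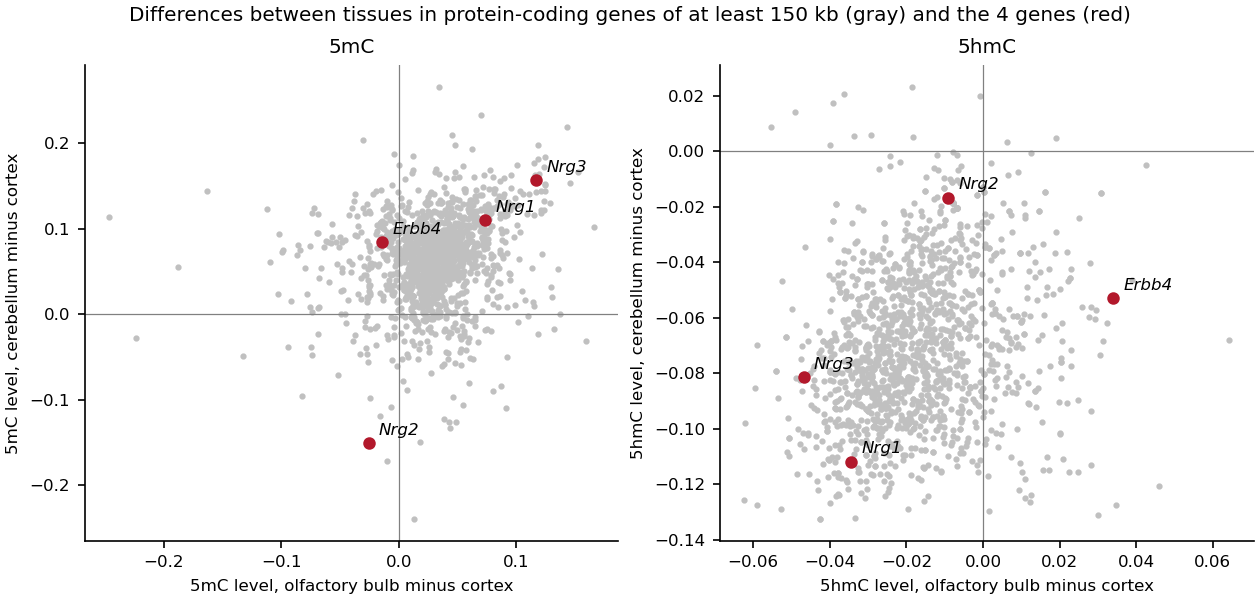
Difference of the tissue means of cerebellum minus cortex (vertical axis) against OB minus cortex (horizontal axis) for 5mC (left) and 5hmC (right), in units of the fraction, for 1476 protein-coding genes of at least 150 kb (gray) and the 4 genes (red). Nrg3 and Nrg1 lie to the upper right for 5mC, Nrg2 lies far below 0, and Erbb4 lies at the right edge of the 5hmC cloud (0.0340).

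The step between gene and flanks was compared in the same long genes. In cortex 72 of the others lay farther below their flanks than Nrg3 (-0.117) and 258 farther than Nrg1 (-0.0708), where the median was -0.0163. In OB 320 genes lay below Erbb4 (-0.0575). In cerebellum 43 genes lay below Nrg2 (-0.170), and the median was -0.00399.

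The genes whose 6 tissue means (5mC and 5hmC in each tissue) were most like those of each member were found by Euclidean distance, leaving out genes within 1 Mb. A tissue order shared with the member is therefore largely set by this choice and is given only as description. For Erbb4 they were Grm8 (distance 0.0224), Dgkb (0.0275) and Vav3 (0.0290), where the median over 1470 genes was 0.125. Grm8 encodes a metabotropic glutamate receptor, Dgkb a diacylglycerol kinase and Vav3 a guanine nucleotide exchange factor, and each had its lowest 5mC of the 3 tissues in OB (0.693, 0.700 and 0.698). Nrg1 was most like Tmem200a (0.0135), Pdlim5 (0.0187) and Bmper (0.0202). Nearest to Nrg2 were Cacna1a (0.0625), Gnao1 (0.112) and Atp2b2 (0.123), at larger distances. Cacna1a encodes the pore of the P/Q-type calcium channel, Gnao1 a G protein subunit and Atp2b2 a plasma membrane calcium pump, and as in Nrg2, each had its lowest 5mC in cerebellum (0.426, 0.423 and 0.508). Nrg3 was closest to Ptprd (0.0306), Cntn4 (0.0334) and Thrb (0.0353), a receptor phosphatase, a contactin and a thyroid hormone receptor, with 5mC of 0.621, 0.663 and 0.636 in cortex. Among the members themselves Nrg1 and Nrg3 were 0.0538 apart, and Nrg2 was at least 0.424 from each of the others.

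In a limma fit over all bins on the log2 odds scale, with Benjamini-Hochberg adjusted p under 0.05, 26 of the 37 member bins were called for 5mC between OB and cortex, beside 39.7% of all bins. Of these 23 were higher in OB (11 of Nrg1 and 12 of Nrg3), as were 37.6% of all bins, and 3 lower (2 of Erbb4 and 1 of Nrg2), as were 2.18%. The lower calls numbered 5 without cortex library 3, 1 without cortex library 1 or 2 or OB library 1, and 0 without OB library 2. Between cerebellum and cortex all 37 were called, beside 76.4% of all bins, 35 of them higher (71.9%) and the 2 of Nrg2 lower (4.44%). Between cerebellum and OB 24 were called, beside 43% of all bins, with 22 higher (35.3%) and 2 lower (7.69%), and 15 were called without cerebellum library 1. For 5hmC 5 of 7 bins were called between OB and cortex (70.9% of all bins), all 7 between cerebellum and cortex (98.1%) and 6 between cerebellum and OB (93%), and the 1 called higher was that of Erbb4 in OB. Higher calls made up 3.25% of all bins between OB and cortex, and lower calls made up 67.7%, 97.6% and 91.8% in the 3 contrasts. These calls rest on the contrasts with which the genes were chosen, so nothing is read from them. With each library centred on its median bin the split of calls moved. For 5mC between OB and cortex 18 bins were then higher and 9 lower. For 5hmC it became 3 higher and 4 lower between OB and cortex, 2 and 3 between cerebellum and cortex, and 3 and 3 between cerebellum and OB.

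Other genes of the pathway, 30 in all, were tested gene by gene among all protein-coding genes with the same limma model. Between OB and cortex 9 of 30 changed in 5mC, 8 higher and 1 lower, where 27.3% of 21718 genes did (26.4% higher, 0.866% lower). Between cerebellum and cortex 19 changed, 18 higher and 1 lower (59.3% of all genes, 55.1% higher and 4.26% lower), and between cerebellum and OB 9, with 7 higher and 2 lower (25.7%, 18% higher and 7.69% lower). The median log2 odds difference of the list was 0.18, 0.34 and 0.18 in these contrasts, and 0.20, 0.29 and 0.08 over all genes. The counts were unsteady. Olfactory bulb to cortex gave 2 without OB library 1 and 3 without library 2. Cerebellum to cortex gave 12 without cerebellum library 1, and cerebellum to OB gave 4 without it and 5 without either OB library. After centring on the library medians 4 genes changed between OB and cortex (2 higher, 2 lower), 12 between cerebellum and cortex (7 higher, 5 lower) and 9 between cerebellum and OB (6 higher, 3 lower).

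Among the other receptors, Egfr, which binds EGF, rose in 5mC from cortex (0.666 ± 0.0201, n = 3) to cerebellum (0.744 ± 0.0139, n = 2), by 0.54 on the log2 odds scale (SE 0.11, limma adjusted p = 6.71e-05). Erbb3, a neuregulin receptor with little kinase activity, was at 0.497 ± 0.0127 (n = 3) in cortex and 0.551 ± 0.0400 (n = 2) in OB, a rise of 0.31 (SE 0.12, limma adjusted p = 0.0359). That call rests on 1 bin of 100 kb, in the contrast whose count of calls fell without either OB library. Erbb2, the partner without a known ligand, had 0.603 ± 0.0429 in cortex, 0.633 ± 0.0495 in OB and 0.644 ± 0.0155 in cerebellum, and passed in no contrast. The median protein-coding gene also rose, by 0.29 from cortex to cerebellum, 0.20 from cortex to OB and 0.08 from OB to cerebellum. The 5mC rises given here and in the next paragraph include that shift.

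The 3 called genes with the largest difference in level were named for each contrast, and their differences are given on the log2 odds scale. Pik3r1, the regulatory subunit of PI3-kinase, rose from 0.539 ± 0.0134 in cortex to 0.694 ± 0.00703 in cerebellum (a difference of 0.96, SE 0.11, limma adjusted p = 2.69e-10). Yap1, a transcriptional coactivator that binds the ErbB4 intracellular domain, rose by 0.80 in cerebellum and by 0.58 in OB over cortex. The ubiquitin ligase gene Nedd4 was higher in cerebellum by 0.65 over cortex and by 0.69 over OB, and Wwp1, another ligase of this family, rose by 0.76 between the latter tissues. The protease gene Adam19 rose by 0.54 from cortex to OB, and Pik3r1 by 0.33. The 1 gene lower in OB than cortex was Wwp1 (0.713 against 0.671, limma adjusted p = 0.0491), and the 1 lower in cerebellum than cortex was the ligand gene Nrg4 (0.642 against 0.597, limma adjusted p = 0.0347); these last genes were named after their values were seen. Neither call was stable, since that of Wwp1 was lost without any 1 of 6 of the 7 libraries and that of Nrg4 without cortex library 1 or 2 or either cerebellum library.

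In 5hmC the list followed the genome. Between OB and cortex 25 of 30 genes changed, all lower (79% of all 21755 genes changed, 77.9% lower). Between cerebellum and cortex all 30 were lower (98.6% changed, 98.4% lower), and between cerebellum and OB 25 changed, 24 lower and 1 higher (89% changed, 88% lower and 1.02% higher). The list's medians were -0.21, -0.74 and -0.55 on the log2 odds scale, and -0.27, -0.76 and -0.50 over all genes. Centred on the library medians, the calls became 16 higher and 9 lower, 16 and 12, and 14 and 12 in the 3 contrasts. The ligand genes Areg, Ereg, Epgn and Btc, which share 1 bin of 1 Mb and its values, had the largest differences in level from cortex to cerebellum, 0.171 ± 0.00865 against 0.0726 ± 0.00254 (n = 3 each, -1.40 on the log2 odds scale, SE 0.07), and from OB to cerebellum (-1.23). Yap1 (-0.56), Adam19 (-0.41) and Adam17 (-0.53) had the largest differences in level from cortex to OB. Egfr fell from 0.154 ± 0.00862 in cortex to 0.135 ± 0.00331 in OB and 0.0641 ± 0.00342 in cerebellum, Erbb2 from 0.169 ± 0.0105 to 0.146 ± 0.00398 and 0.124 ± 0.00356, and Erbb3 from 0.162 ± 0.0111 to 0.132 ± 0.00433. Erbb3 in cerebellum was at 0.123 ± 0.00191, which did not pass against OB. The cerebellum minus cortex differences of Erbb2 (-0.52) and Erbb3 (-0.47) were smaller than the shift of the median bin (-0.97), so relative to it both were higher in cerebellum, and that of Egfr (-1.40) was larger than the shift. No receptor of the list was higher in OB than in cortex, as Erbb4 was. Hbegf has the same 1 Mb bin as Nrg2 and lies in its flank, so its values repeat those of that bin. Erbb3 and Rnf41 also have the same 5hmC values, and Ereg and Epgn the same 5mC values. The counts out of 30 therefore hold repeated values and are not of 30 separate measurements.

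**Figure D5:**
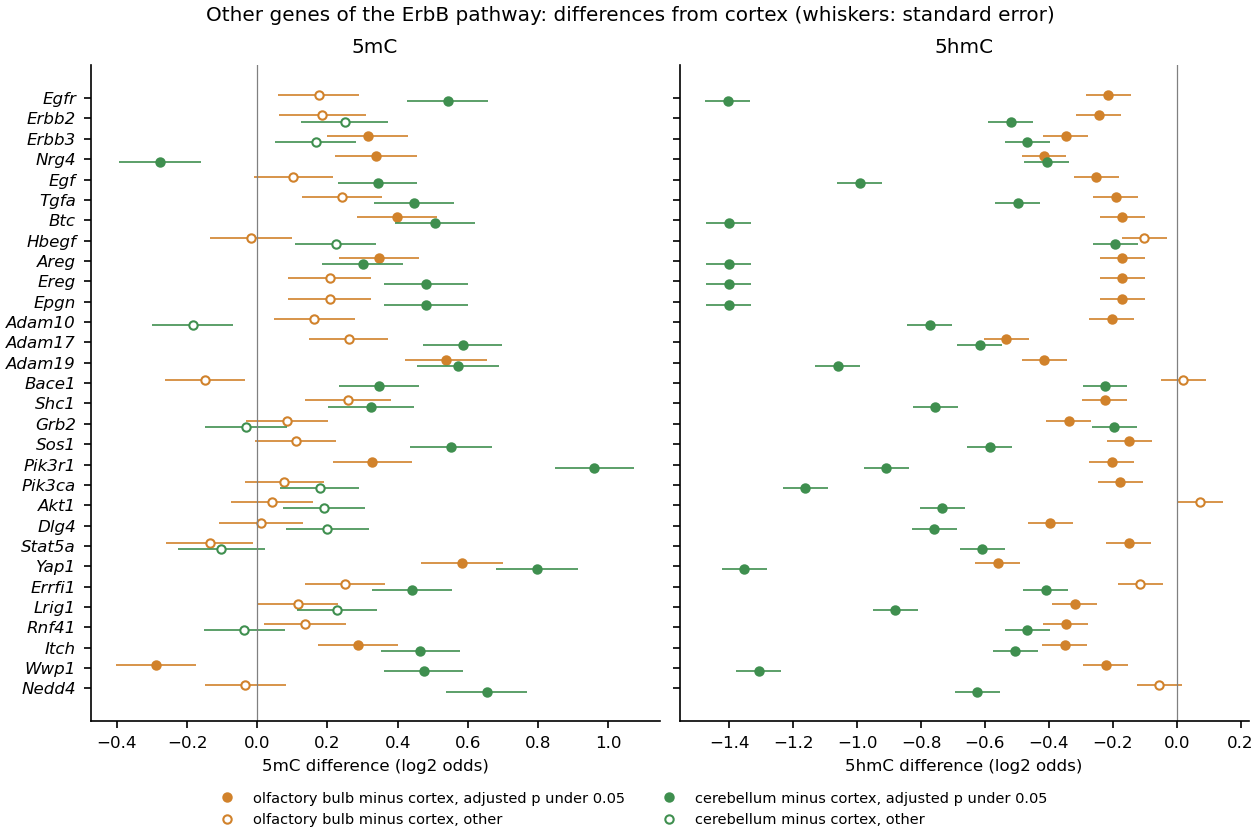
Difference from cortex in 5mC (left) and 5hmC (right) of the 30 other genes of the ErbB pathway, on the log2 odds scale, for OB and cerebellum. Whiskers are the standard error of the limma fit, filled points have an adjusted p under 0.05 and open points do not; 25 of the 30 genes lie above 0 in 5mC in OB and 25 in cerebellum, and in 5hmC all 30 lie below 0 for cerebellum.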

How the data were processed

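Genomic DNA of cortex, olfactory bulb and cerebellum was measured by oxBS-seq (7 libraries) and TAB-seq (9 libraries). The authors mapped reads with Bismark to mm10 and deposited levels as a fraction from 0 to 1 per bin, without counts; how sites were combined into bins and the tool's version are not given in the sources used here. The 5mC bins are 100 kb and the 5hmC bins 1 Mb. Bins at 0 or 1 in any library were left out (25664 and 2581 kept, with all 37 and 7 member bins among them). A gene's level was the mean over the bins it overlaps, with flanks of 500 kb. The 4 genes, the pathway list and the marker loci were chosen with earlier results of these data known. Members were described by mean and SD over libraries. Bins and genes were tested with limma 3.58.1 (R 4.3.3) on log2(level/(1 - level)), all tissues in 1 fit, with Benjamini-Hochberg adjustment over all bins or genes, two-sided. For 5hmC limma drew every gene to 1 common spread, so the SEs are equal and adjusted p-values are mostly not printed. The model was also run on simulated data that lacked a shift of the whole genome between tissues. These data have such a shift, so that run does not test the model in this setting. Named were the members with the bins of largest and smallest difference, Egfr, Erbb2, Erbb3, the 3 called list genes with the largest difference per assay and contrast, and the 3 genes of at least 150 kb nearest to each member. Gene positions came from GENCODE vM21 and promoter sequences from RefSeq GRCm38.p6, with chromosome ends of the bins checked against GRCm38. The labels name the replicates technical but give each its own mouse, so p-values measure the spread between these libraries. In 5hmC, cortex and olfactory bulb libraries of the same replicate number deviated together (r 0.126, 0.344 and 0.250). All 6 pairs of different number were negative, but deviations within a tissue sum to 0, so these pairs add no separate support. Olfactory bulb library 3 and cerebellum library 2, of different number, reached r 0.299. Whether the numbers pair samples is therefore not settled by these values, and the replicate block is only an alternative. In the other comparisons the numbers are names. Alternatives were another bin average, centring, other flanks, the fraction scale, limited levels, trend and robust limma, a replicate block and leaving out each library.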

Additional observations from a re-analysis of the deposited data

Results flagged for a closer look

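The libraries of 2 tissues moved in opposite directions in 3 cases, which are given as values, and the differences were not tested. Nrg2 stood above its flanks in 5mC in all 3 cortex libraries (mean 0.0259) and below them in both cerebellum libraries (mean -0.170). This rests on flanks of 500 kb, since with flanks of 1 Mb the cortex mean was -0.0163. In 5hmC, Nrg1 was above its 1 flanking megabase in all 3 cortex libraries (mean 0.00210) and below it in all 3 olfactory bulb libraries (mean -0.0117) and all 3 cerebellum libraries (mean -0.0226). The flanking megabase of Nrg1 holds 10 other protein-coding genes, and the 3 cortex values, 0.00197, 0.00166 and 0.00267, are close to 0. The Nrg1 value also averages in chr8:31000001-32000000, which is only 18.5% gene. In the bin that is 88.4% gene, cortex read 0.199, 0.213 and 0.188, against 0.183, 0.198 and 0.174 in the flank. Olfactory bulb read 0.160, 0.166 and 0.158 there, against 0.159, 0.170 and 0.164, so its libraries lay on both sides of the flank.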

How the results depend on the processing

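Centring each library on its median bin had the widest effect, by its construction, since it takes off the shift of the genome. It turned the sign of 6 differences in 5hmC: olfactory bulb minus cortex became 0.0138 for Nrg2, whose libraries overlapped before, cerebellum minus cortex became 0.0287 for Erbb4, 0.0649 for Nrg2 and 4.57e-05 for Nrg3, and cerebellum minus olfactory bulb became 0.0511 for Nrg2 and 0.0240 for Nrg3. In 5hmC it moved olfactory bulb minus cortex to 0.0568 for Erbb4, -0.0116 for Nrg1 and -0.0240 for Nrg3, cerebellum minus cortex to -0.0303 for Nrg1, and cerebellum minus olfactory bulb to -0.0280 for Erbb4 and -0.0187 for Nrg1. In 5mC it gave for olfactory bulb minus cortex -0.0461 (Erbb4), 0.0411 (Nrg1) and 0.0850 (Nrg3), for cerebellum minus cortex 0.0275 (Erbb4), 0.0538 (Nrg1), -0.207 (Nrg2) and 0.100 (Nrg3), and for cerebellum minus olfactory bulb 0.0737 (Erbb4), 0.0126 (Nrg1) and 0.0154 (Nrg3). It lowered the pathway genes changed in 5mC from 9 to 4 (olfactory bulb and cortex) and from 19 to 12 (cerebellum and cortex).

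Weighting by overlap moved 5hmC of Erbb4 to 0.0627 (olfactory bulb minus cortex) and -0.0273 (cerebellum minus cortex) and of Nrg1 to -0.0840 (cerebellum minus olfactory bulb), since the part-covered megabases count less, and the median over bins moved Nrg1 5mC to 0.0223 (cerebellum minus olfactory bulb). Flanks of 1 Mb reversed the 5mC step from flank to gene of Nrg1 in cerebellum (0.00540) and of Nrg2 in cortex (-0.0163). They moved it to -0.0187, -0.0529 and -0.00337 for Erbb4 in cortex, olfactory bulb and cerebellum, -0.0433 and -0.00208 for Nrg1 in cortex and olfactory bulb, -0.0612 and -0.224 for Nrg2 and -0.0432 and -0.0238 for Nrg3 in olfactory bulb and cerebellum. With bins wholly inside the gene the step was -0.0217, -0.0553 and -0.00641 for Erbb4 and -0.0364 and -0.0170 for Nrg3 in olfactory bulb and cerebellum. For the moved flank values the cause was not tested. Nrg2 has no such bin and was not run.

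Leaving out 1 library kept every member difference within its spread, although that of Nrg2 between olfactory bulb and cortex ran from -0.0622 to 0.0107 and its step from flank to gene in olfactory bulb from -0.0411 to 0.0303. Member bins called for 5mC ranged from 15 to 29 between cerebellum and olfactory bulb. Pathway genes changed in 5mC ranged from 2 to 9 between olfactory bulb and cortex, 12 to 20 between cerebellum and cortex and 4 to 11 between cerebellum and olfactory bulb. With 1 library left in a tissue, limma assumes that it varies like the others.

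Replicate numbers are shared between tissues. For 5mC, libraries of the same number did not deviate together (r -0.0906 to 0.0158 over 6 pairs), nor did those of cerebellum with cortex or olfactory bulb for 5hmC (r -0.229 to 0.0743 over 6 pairs). For 5hmC of cortex and olfactory bulb they did, and the block changed no count of calls there or in the other 5hmC contrasts. For 5mC a fit with the replicate number as a block called 29, 37 and 29 member bins for 5mC (olfactory bulb and cortex, cerebellum and cortex, cerebellum and olfactory bulb) where the fit without it called 26, 37 and 24, and 7, 19 and 11 pathway genes against 9, 19 and 9. A block by the numbers in the library names, chosen after seeing the data, gave 26, 37 and 23 bins and 12, 23 and 8 genes.

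Fractions without read counts set the limit: the sampling error of a bin cannot be separated from the difference between mice, and with 2 libraries of olfactory bulb and cerebellum an SD is itself imprecise. Bins of 100 kb and 1 Mb cannot resolve promoters or enhancers, and the 5hmC of Nrg2 is that of its megabase.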
